A study of Rattus norvegicus with 16 samples.

Results

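The genes described here make pulmonary surfactant and the secretions of club cells. They are the surfactant proteins Sftpa1, Sftpb, Sftpc and Sftpd, the lamellar body and processing genes Abca3, Napsa, Lamp3 and Slc34a2, and the secretoglobins Scgb1a1 and Scgb3a2. A gene was represented by the array probes whose RefSeq transcript maps to its symbol, and where there was more than 1 probe the brightest in lung was used. Probes were found for 9 of the 10 genes, among 16678 gene symbols that could be given to probes of the array. Abca3, the lipid transporter of the lamellar body, had no probe by this rule and has no values here. Lung and adipose RNA of 8 rats was hybridized to 16 arrays of 1 color, so that every rat gave both tissues. All were male Brown Norway rats, with an age of 7 weeks given for the animals that entered the schedule below. The 5 HDM rats received 45 µg of house dust mite under the skin in Al(OH)3, 1 time per week for 3 weeks, and then 120 µg into the nose 3 times per week for 3 weeks. The 3 control rats went through the same schedule with saline, also in Al(OH)3 for the injections, so that the adjuvant was shared by both groups. Whole tissue was used and the depot of the adipose tissue is not given in the sources used here.

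Pulmonary surfactant is a film of phospholipid and protein that lowers surface tension in the alveoli. Alveolar type 2 cells make it, store it in lamellar bodies and secrete it, and alveolar macrophages clear part of it. Club cells are secretory cells of the small airways, and their secretoglobins are among the most abundant proteins of the airway lining. The transcription factor NKX2-1 acts on several of these genes in both cell types. Adipose tissue holds neither cell type and served as the non-lung reference.

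The stretch just before the start of transcription is shown for a surfactant gene and a club cell gene, because NKX2-1 is known to act on the promoters of both. It was searched on both strands for CTCAAG, the core of the NKX2-1 consensus, which reads CTTGAG on the other strand, and for TATAAA, which reads TTTATA there. The sequences are those of RefSeq on GRCr8, from position -130 to -1 before the annotated start, 5′ to 3′ along the gene, with matches to either motif in capitals. Sftpb lies on the plus strand (chr4:105917458-105917587) and Scgb1a1 on the minus strand (chr1:215409687-215409816).
Sftpb: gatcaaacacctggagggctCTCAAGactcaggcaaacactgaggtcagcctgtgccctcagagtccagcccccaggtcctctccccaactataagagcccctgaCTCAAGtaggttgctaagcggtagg
Scgb1a1: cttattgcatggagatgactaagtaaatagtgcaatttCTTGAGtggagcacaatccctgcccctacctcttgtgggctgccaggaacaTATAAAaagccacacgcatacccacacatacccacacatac
In Sftpb, CTCAAG stood at positions -110 and -25, both on the strand of the gene. In Scgb1a1 it stood on the other strand at position -92, and TATAAA at -41. The table of promoters held 7 of the 10 genes (not Sftpc, Sftpd or Napsa). In the 250 bases before the start, 3 of these 7 held CTCAAG (Sftpb, Scgb1a1 and Scgb3a2) and 2 held TATAAA (Sftpa1, at -39, and Scgb1a1). Among all 33469 windows of this length, 13.4% held CTCAAG and 12.9% held TATAAA. These matches describe the letters only.

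Signals are given on the log2 scale relative to the 75th percentile of each array. Levels of different genes are read by different probes and are not compared with each other. The 75th percentile itself was 376 to 488 intensity units on lung arrays and 111 to 240 on adipose arrays. Between 62.2% and 68.8% of the probes of a lung array and between 51.0% and 60.3% of those of an adipose array were well above background. All lung arrays lay on 1 slide and all adipose arrays on another, so slide and tissue cannot be told apart. On both slides HDM rats 1 to 4 lay in row 1, and HDM rat 5 and the control rats in row 2. In adipose tissue, genes of the epididymis stood out in control rat 1 and HDM rat 1, with a log2 summed signal of the 7 measured list genes of 12.02 and 11.49. In the other 6 rats it was -2.16 to 4.84. The adipose array of HDM rat 2 had 1711 spots marked as outliers, against 410 to 566 on the other adipose arrays. The arrays fit their tissue labels. The log2 summed signal of the 9 alveolar type 1 markers was 9.75 to 10.09 on lung arrays and 5.93 to 6.57 on adipose arrays. That of the 5 adipocyte markers was -1.01 to 2.60 on lung arrays and 8.63 to 9.68 on adipose arrays.

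In the lungs, none of the 9 genes was differentially expressed in HDM rats. A probe was called at an adjusted p below 0.05 (limma, Benjamini–Hochberg over all 45598 probes) and a fold change above 1.5, and 390 probes or 0.855% of all passed. The log2 fold changes of the 9 genes lay between -0.36 and 0.03, with standard errors of 0.09 to 0.17 and adjusted p-values of 0.44 to 1.00. They were below 0 for 8 genes and above 0 for Slc34a2, with a median of -0.10, beside a median of 0.0028 over all probes. For 8 of the 9 genes the 95% interval of the fold change lay within 1.5-fold in both directions, and the exception was Sftpd. This holds for the fit that leaves the slide row out. With the slide row as a block, the standard errors were wider, from 0.16 for Sftpb to 0.28 for Slc34a2. Whether the intervals stay within 1.5-fold there was not tested. All 9 probes were well above background on all 8 lung arrays, and none was saturated. Fewer cells of a type and less RNA per cell cannot be told apart in whole lung.

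**Figure D1:**
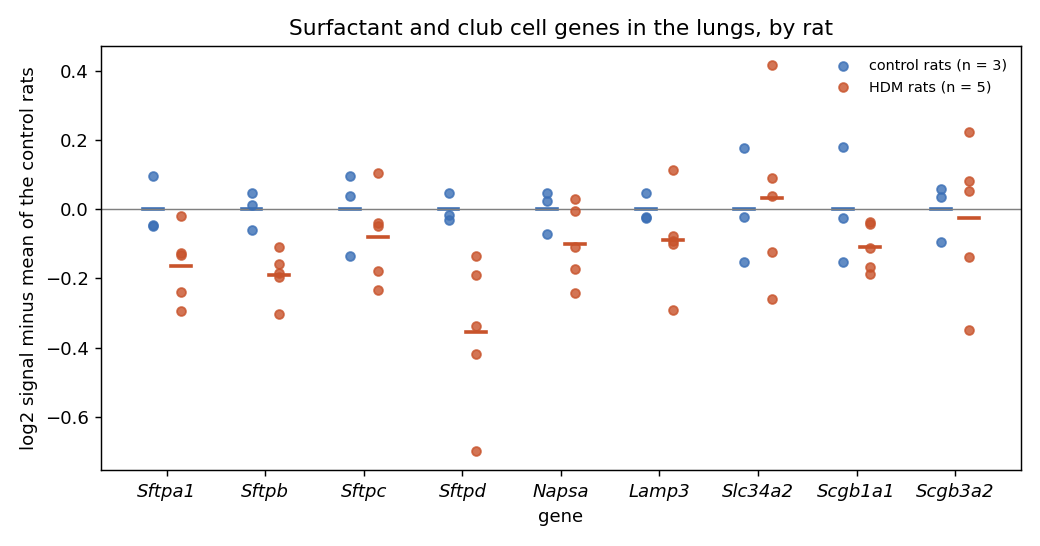
Log2 signal of each gene in the lungs of 3 control rats and 5 HDM rats, minus the mean of the control rats for that gene. Points are rats and bars are group means. All HDM rats lie below all control rats for Sftpb and Sftpd and the groups overlap for the other 7 genes.

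Sftpd encodes surfactant protein D, a collectin that binds sugars on microbes and allergens. Its signal was 7.83, 7.75 and 7.77 in control rats 1 to 3. In HDM rats 1 to 5 it was 7.37, 7.59, 7.65, 7.09 and 7.45. The groups did not overlap, and HDM rat 4 was the lowest of the 8. For Sftpd the log2 fold change was -0.36 (standard error 0.14, 95% interval -0.69 to -0.02). This is a signal 1.28-fold lower in HDM rats (limma, adjusted p = 0.44, unadjusted p = 0.0387, two-sided exact permutation test, p = 0.0357). Sftpd was the only 1 of the 9 genes with an unadjusted p below 0.05, which held for 10.2% of all probes. Within row 2 of the slide, HDM rat 5 was 0.34 below the mean of the control rats.

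Sftpb encodes surfactant protein B, which spreads the phospholipid film and is needed to form lamellar bodies. The signal was 8.04, 7.97 and 8.08 in control rats 1 to 3. The HDM rats, 1 to 5, had 7.72, 7.84, 7.87, 7.92 and 7.83. Again the groups did not overlap, and the lowest value was that of HDM rat 1. The difference in log2 signal was -0.19 (standard error 0.09, 95% interval -0.41 to 0.03). It did not pass the test (limma, adjusted p = 0.58, exact permutation test, p = 0.0179, the smallest that 5 against 3 allows). At the other probe of Sftpb the log2 fold change was -0.17 and the groups overlapped. Sftpb and Sftpd were 2 of 9 genes with all HDM rats below all control rats, which held for 4.97% of all probes.

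Sftpa1 and Sftpc differed less from the spread between rats. Sftpa1, the other collectin of surfactant, was at 7.53, 7.53 and 7.67 in control rats 1 to 3. HDM rats 1 to 5 were at 7.28, 7.45, 7.56, 7.44 and 7.34. Only HDM rat 3 reached into the control range. The log2 fold change was -0.16 (standard error 0.11, 95% interval -0.41 to 0.08, limma, adjusted p = 0.74), and it was -0.13 at its other probe. Sftpc, which encodes a hydrophobic surfactant peptide and is a defining gene of alveolar type 2 cells, was at 9.24, 9.01 and 9.19 in control rats 1 to 3. HDM rats 1 to 5 were at 9.10, 9.11, 9.25, 8.97 and 8.91. The groups overlapped across most of their range, with a log2 fold change of -0.08 (95% interval -0.35 to 0.19, limma, adjusted p = 0.95).

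Napsa, Lamp3 and Slc34a2, of lamellar bodies, protein processing and phosphate transport, overlapped between the groups. Napsa encodes an aspartic protease that helps to process surfactant protein B. It lay between 6.59 and 6.71 in control rats and between 6.42 and 6.69 in HDM rats (median 6.55). Lamp3 encodes a membrane protein of lamellar bodies, and its signal was 4.00 to 4.08 in control rats and 3.74 to 4.14 in HDM rats (median 3.94). The control values of Lamp3 were close together (SD 0.04, n = 3) and the HDM rats lay on both sides of them. Slc34a2 encodes the phosphate transporter of alveolar type 2 cells. Its signal was 2.65, 2.78 and 2.98 in the control rats and 2.54, 2.84, 2.68, 3.22 and 2.89 in HDM rats 1 to 5, so that HDM rats held both the lowest and the highest value. The log2 fold changes were -0.10 for Napsa, -0.09 for Lamp3 and 0.03 for Slc34a2, with adjusted p-values of 0.90, 0.93 and 1.00 from limma.

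Scgb1a1 encodes the club cell secretory protein. Its signal was 7.78, 7.65 and 7.99 in control rats 1 to 3. In HDM rats 1 to 5 it was 7.64, 7.62, 7.77, 7.76 and 7.69. The HDM rats lay closer together (SD 0.07, n = 5) than the control rats (SD 0.17, n = 3), and the groups overlapped. The log2 fold change was -0.11 (standard error 0.11, 95% interval -0.36 to 0.14, limma, adjusted p = 0.89). Scgb3a2, a secretoglobin of the airways, was at 6.70, 6.57 and 6.72 in control rats 1 to 3. Values in HDM rats 1 to 5 were 6.71, 6.52, 6.88, 6.31 and 6.74. HDM rats again held both extremes, with a log2 fold change of -0.03 (95% interval -0.36 to 0.31, limma, adjusted p = 1.00).

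**Figure D2:**
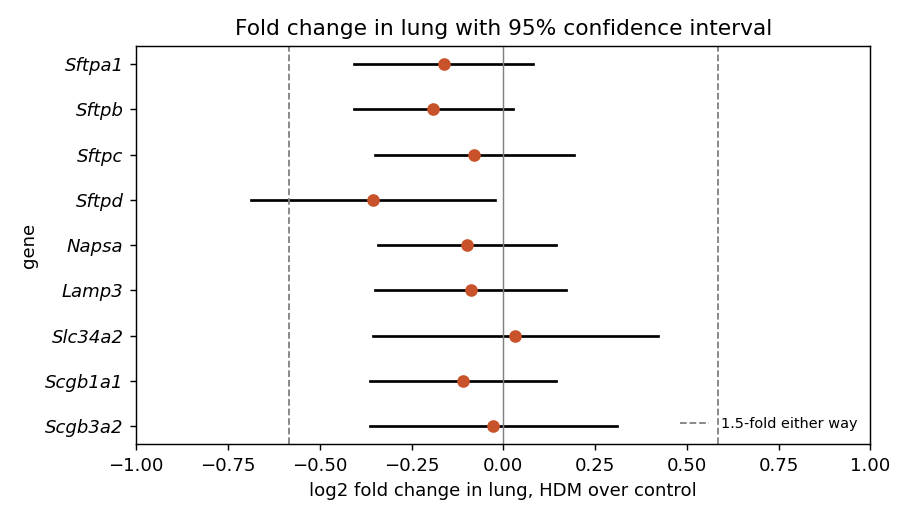
Log2 fold change of the 9 genes in lung, HDM rats over control rats, with the 95% interval from limma. Dashed lines mark 1.5-fold in both directions. Only the interval of Sftpd, -0.69 to -0.02, crosses a dashed line, and it is also the only one that leaves out 0.

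Among single rats, HDM rat 1 had the lowest lung signal of the 8 rats for 5 of the 9 genes (Sftpa1, Sftpb, Napsa, Lamp3 and Slc34a2). HDM rat 4 was the lowest for Sftpd and Scgb3a2. No control rat was the lowest for any of them, while HDM rat 3 was the highest for 3. The distance from the lowest to the highest lung was 0.29 log2 units for Napsa, the smallest, and 0.75 for Sftpd, the largest. With the slide row as a block, the log2 fold changes ranged from -0.34 for Sftpd to 0.09 for Slc34a2 and none was called. The row block rests on HDM rat 5 alone, since no control rat lay in row 1.

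Of the cell type lists, neutrophil markers moved most in lung. All 5 rose in HDM rats, with log2 fold changes of 4.46 for S100a8, 4.09 for S100a9, 3.95 for Mmp8, 2.46 for Cxcr2 and 2.18 for Csf3r. The log2 summed signal of the list was 2.99 to 3.32 in control lungs and 6.94 to 8.07 in HDM lungs. With the slide row as a block, S100a8 (limma, adjusted p = 0.0539) and Csf3r (limma, adjusted p = 0.0543) were no longer called. The part of the neutrophil genes in the values of the surfactant and club cell genes was not tested. Of 6 general epithelial markers (Krt19 and Esrp1 among them), none was called. Their log2 fold changes were all below 0, between -0.37 and -0.14, with a median of -0.20. The 9 alveolar type 1 markers had a median of -0.18 with 8 below 0 and none called. For 4 of these 9 every HDM rat lay below every control rat, against 4.97% of all probes. These were Clic5 (-0.27), Ager (-0.21), the membrane receptor abundant on these cells, and Emp2 and Pdpn. Hopx (-0.26) and Gprc5a (-0.24) had similar log2 fold changes but their groups overlapped. Every HDM rat also lay below every control rat for 2 of the 6 general epithelial markers, Krt19 (-0.37) and Epcam (-0.14), while the groups overlapped for Esrp1. The median was -0.18 for the 4 surfactant proteins and -0.07 for the 2 secretoglobins. Some lists of other cells were also below 0 at the median, at -0.15 for 5 genes of fibroblasts and smooth muscle, -0.13 for 5 of macrophages and -0.10 for 4 of endothelium, with none called. Of the macrophage genes, Adgre1 (0.64) and Cd68 (0.27) were above 0. The log2 summed signal of that list was 2.96 to 3.14 in control lungs and 3.20 to 3.36 in HDM lungs. Medians were above 0 for T and B lymphocytes (0.13), goblet cells (0.20), adipocytes (0.62) and epididymis (0.20), also with none called. The last 3 lists held dim genes. On a lung array, 3 to 5 of 6 goblet, 3 to 5 of 5 adipocyte and 2 to 3 of 7 epididymis genes were well above background. Of the goblet genes, 3 were above and 3 below 0.

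Other genes of alveolar type 2 cells were measured for 7 of 8 list members, and 1 of the 7 was called, against 0.855% of all probes. Lgi3, which encodes a secreted protein used as a type 2 marker, fell in HDM rats. Its signal was 5.92, 5.98 and 5.98 in the control rats and 5.06, 5.30, 5.20, 5.20 and 5.31 in HDM rats 1 to 5. The groups lay well apart, the log2 fold change being -0.74 (limma, adjusted p = 0.0198). The call was lost (adjusted p 0.0580 to 0.123) when any 1 of the control rats, HDM rat 1 or HDM rat 2 was left out. It was also lost once the slide row entered the fit (-0.65, limma, adjusted p = 0.419). Cldn18, the tight junction protein of the alveolar epithelium, was at 2.79 to 2.85 in control rats and 2.31 to 2.57 in HDM rats. It did not overlap but was not called (log2 fold change -0.35, limma, adjusted p = 0.23). Lgi3 and Cldn18 were 2 of 7 genes with every HDM rat below every control rat, against 4.97% of all probes. The median of the 7 genes was -0.12, with 5 below 0 and 2 above 0, of which Lpcat1 (0.24) was the higher.

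The wider surfactant pathway held no called gene in lung. Of 10 genes for processing, turnover and control of the surfactant pool, 8 had a log2 fold change below 0 and the median was -0.29. Prdx6, the phospholipase and peroxidase that recycles surfactant phospholipid, was at 5.07 to 5.46 in control rats and 4.76 to 4.86 in HDM rats (log2 fold change -0.53, limma, adjusted p = 0.11). Pparg, which alveolar macrophages need to mature, was at 2.26 to 2.45 in control rats and 1.71 to 2.04 in HDM rats (log2 fold change -0.49, adjusted p = 0.12). Both were among 4 of the 10 genes with every HDM rat below every control rat, against 4.97% of all probes. For 2 of the 10, every HDM rat lay above every control rat. The share of all probes in this direction was not computed, so the count cannot be set against it. Csf2ra, a subunit of the receptor for GM-CSF, lay higher in every HDM rat, its log2 fold change being 0.53 (adjusted p = 0.19), and its partner Csf2rb had 0.75 (adjusted p = 0.14) but was well above background on only 4 of 8 arrays. Of 9 measured genes for synthesis of surfactant lipid, 6 were below 0 with a median of -0.15. Fasn, the fatty acid synthase, had the largest log2 fold change of this list (-0.60, limma, adjusted p = 0.65). It was measured on 7 of 8 lung arrays, since its spot on an HDM array was an outlier, and was at 0.14 with the slide row as a block. Chka, the first enzyme of phosphatidylcholine synthesis, was at -0.40 on the same scale (adjusted p = 0.19), and Pcyt1a, which sets its rate, at -0.36 (adjusted p = 0.59).

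Of 10 transcription factors of the distal lung epithelium, none was called and the median was -0.07. Nkx2-1, whose product acts on the genes printed above, was at 3.99, 4.09 and 4.07 in control rats 1 to 3. In HDM rats 1 to 5 it was at 3.68, 4.00, 3.74, 4.08 and 3.94. The groups overlapped, with a log2 fold change of -0.16 (95% interval -0.45 to 0.13, limma, adjusted p = 0.82). Of 8 other genes of club and airway secretory cells, 4 were above and 4 below 0 and none was called. Cyp2a3, a cytochrome P450, had the largest log2 fold change of the list (-0.61, limma, adjusted p = 0.91), and it was 1.44 with the slide row as a block. Scgb3a1, a secretoglobin, varied between single rats, at 2.99 to 3.82 in control rats and 2.29 to 5.59 in HDM rats, where HDM rat 5 was the highest. The goblet cell gene Clca1 was also highest in HDM rat 5 (4.67, against -0.63 to 2.69 in the other HDM rats and 0.75 to 2.81 in control rats). The secretoglobins Scgb1a1 and Scgb3a2 of HDM rat 5 lay within the range of the other HDM rats.

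**Figure D3:**
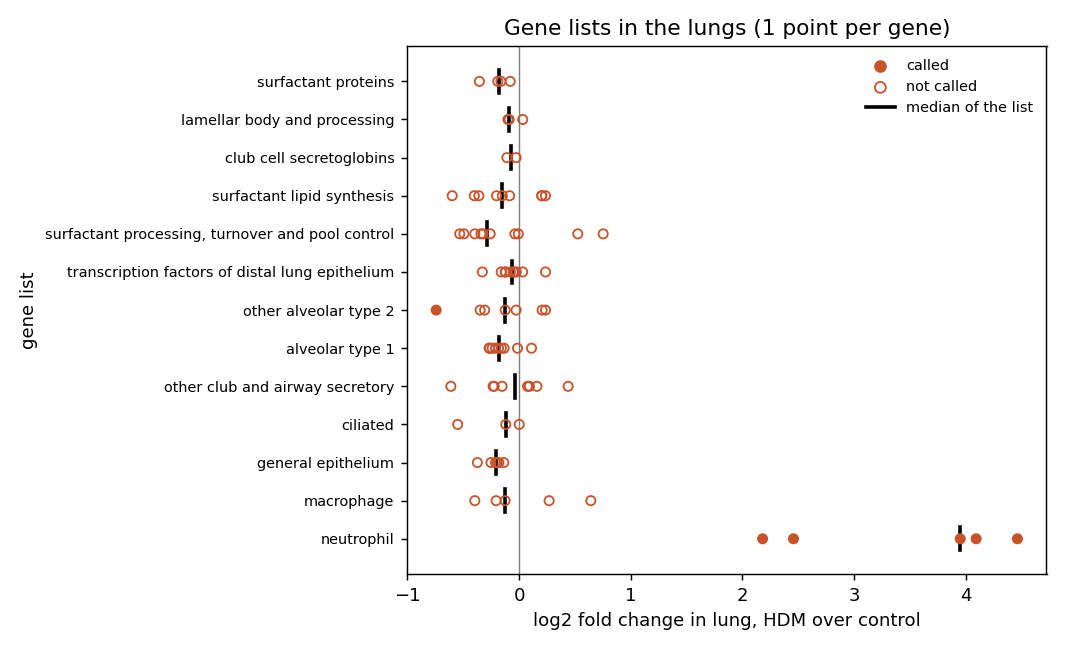
Log2 fold change in lung, HDM rats over control rats, for each gene of 13 lists, with 1 point per gene. Filled points are called and bars are list medians. The 5 neutrophil markers lie at 2.18 to 4.46 and Lgi3 at -0.74, and no other gene shown is called.

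The genes whose lung signal ran most like the mean of the 4 surfactant proteins over the 8 lungs were C4bpb, Tmx1, Ahcy, Net1 and Krtcap3. Their Pearson correlations were 0.98, 0.97, 0.96, 0.96 and 0.96. For Scgb1a1 they were Ptgir, Gprc5c, Ippk, Socs2 and Aqp2, with 0.94, 0.94, 0.93, 0.91 and 0.91. These are the highest of 11903 symbols over only 8 arrays of 1 slide, so they are given as a description.

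In adipose tissue the same genes were near background, and Napsa was the exception. In control rats the lung signal exceeded the adipose signal for all 9 genes (limma on lung minus adipose values within a rat, adjusted p from 9.24e-08 to 5.13e-05). The genes were listed as lung genes and read at their brightest lung probe, so the rule favored this direction. The lowest of these p-values is that of Sftpa1, which no adipose array held well above background. Of all probes, 12.0% were called higher in lung. The lung was higher in 8 of 8 rats for each of the 9 genes. At the brightest lung probe, none of the 8 adipose arrays had Sftpa1, Lamp3, Slc34a2 or Scgb3a2 well above background. None of the 3 control ones had Scgb1a1. For these probes only a bound holds. It sets the lung mean against the lowest signal well above background on each adipose array, or against the gene's own adipose signal if higher. In control rats Scgb1a1 was at least 5520-fold, Sftpa1 at least 4980-fold, Scgb3a2 at least 2639-fold, Lamp3 at least 426-fold and Slc34a2 at least 182-fold higher in lung. The other probe of Sftpa1 was well above background on 1 of 3 control and 1 of 5 HDM adipose arrays. Its lung signal was 1013-fold higher in control rats, so the bound of Sftpa1 holds for its brightest probe only. The log2 difference was 13.17 for Sftpc and 11.83 for Sftpb, each well above background on 1 of 3 control adipose arrays, and 11.37 for Sftpd, on 2 of 3.

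Napsa was well above background on all 8 adipose arrays. Its adipose signal was 0.80, 0.90 and 1.82 in control rats 1 to 3. In HDM rats 1 to 5 it was 0.64, 1.27, 1.42, 1.60 and 1.03. The lung was 44.8-fold higher than adipose tissue in control rats (95% interval 31.1 to 64.5). Of the transcription factors, Nkx2-1 stood well above background on 0 of 8 adipose arrays, so that only a bound holds, and in control rats it was at least 432-fold higher in lung.

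**Figure D4:**
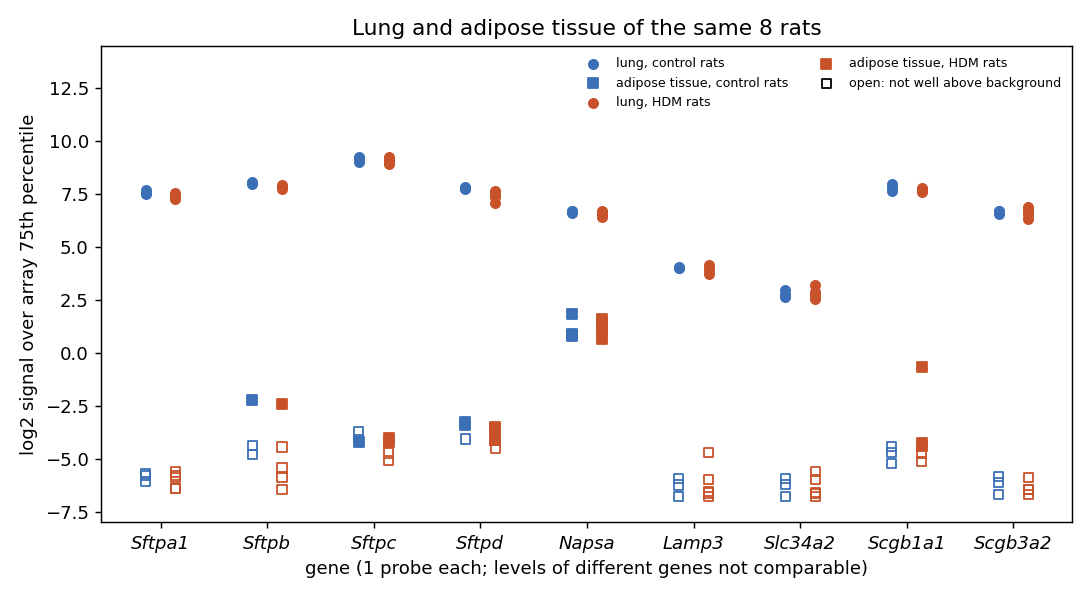
Log2 signal of the 9 genes in the lungs (circles) and adipose tissue (squares) of the same 8 rats, relative to the 75th percentile of each array. Open symbols are not well above background. Lung lies above adipose tissue in all 8 rats for every gene, and Napsa alone is filled on all 8 adipose arrays.

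No member was called between HDM rats and control rats in adipose tissue, where 0% of all probes passed the test (9.90% had an unadjusted p below 0.05 with limma, and none of the 9 genes did). The methods' t-test called no member either. Over all adipose probes the log2 fold change had a median of -0.15, or 0.14 with arrays scaled to their medians. For Napsa the log2 fold change was 0.02 (standard error 0.31, 95% interval -0.69 to 0.73). Sftpd, well above background on 6 of 8 adipose arrays, had -0.39 (standard error 0.29, 95% interval -1.06 to 0.29). The intervals in adipose tissue all reached past 1.5-fold, so changes of that size were not excluded there. For the difference between the lung and the adipose change, none of the 9 genes was called, and 0.00219% of all probes were. The lowest adjusted p of the 9 genes was 0.80, and none of them had an unadjusted p below 0.05, against 7.74% of all probes.

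Sftpb and Scgb1a1 had single adipose samples apart from the rest. Sftpb was well above background in control rat 1 (-2.24) and HDM rat 1 (-2.40), and lay between -6.44 and -4.37 in the other 6 rats. These are the 2 rats with the highest summed signal of the epididymis genes in adipose tissue. Control rat 3 came next in that signal (4.84), with Sftpb at -4.81. At the other probe of Sftpb both rats were again high (-2.12 and -2.22), but so was HDM rat 2 (-2.03), whose first probe read -5.86. Without control rat 1 and HDM rat 1, left out once the data were known, no member was called in adipose tissue either. Scgb1a1 stood at -0.65 in HDM rat 2 and between -5.21 and -4.27 in the other 7 rats. Without HDM rat 2 its log2 fold change in adipose tissue was 0.15, compared with 0.95 with all rats and 1.68 with the replicate number as a block. The part of the epididymis genes and of the outlier spots in these values was not tested.

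**Figure D5:**
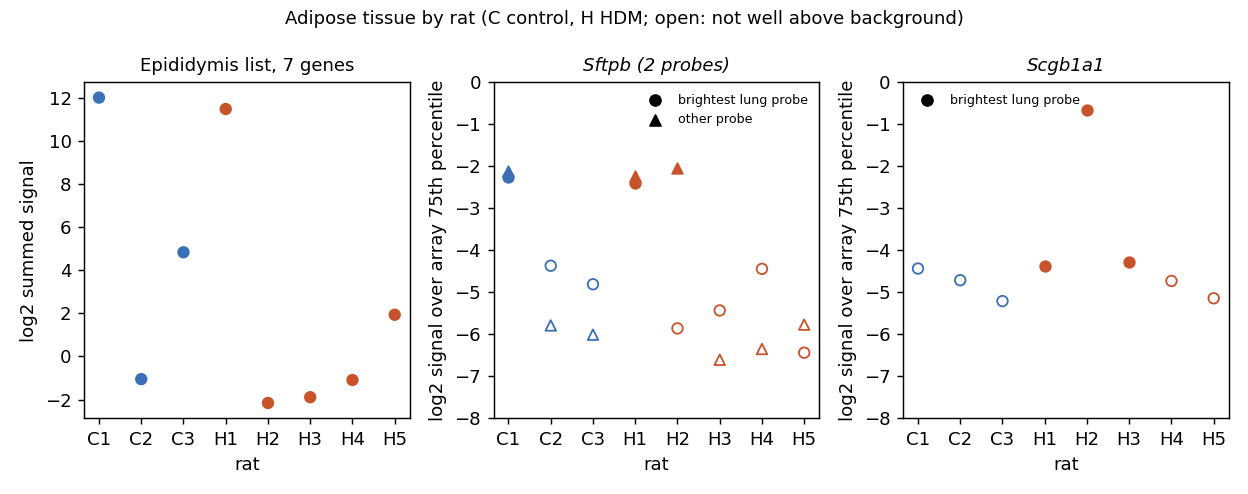
Adipose tissue of control rats (C1 to C3) and HDM rats (H1 to H5). The left panel gives the log2 summed signal of 7 epididymis genes, highest in C1 (12.02) and H1 (11.49), the middle panel the log2 signal of both Sftpb probes, and the right panel that of Scgb1a1, with H2 at -0.65. Open symbols are not well above background.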

How the data were processed

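For each of the 16 arrays the authors deposited spot intensity on a linear scale, background-subtracted by Agilent Feature Extraction 12.0.3.1 without normalization between arrays. Their normalized log2 values from GeneSpring were deposited as well and served as an alternative within a tissue, with 39 cells that held a date in place of a value left empty. In all, 99.97% of these lung values and 99.85% of the adipose values lay within 0.1 of the main values given here, once these were centered on each probe's median in that tissue.

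Control probes and outlier spots were left out, repeated spots were averaged as log2 values, and each array's 75th percentile was subtracted. Groups were compared with limma 3.58.1 in R 4.3.3 within each tissue, on the arrays of 5 HDM and 3 control rats, and single values with two-sided exact permutation tests over 56 splits. Tissues were compared on lung minus adipose values within each rat. The pairing comes from the labels, and after removal of group means the 2 arrays of a rat correlated between -0.07 and 0.12. In adipose tissue, HDM and control rats with the same number correlated at 0.74, 0.24 and 0.13, all above 0.1. The labels do not say that the number marks a pairing. The 0.74 was that of control rat 1 and HDM rat 1, the 2 adipose samples with the highest epididymis signal. The number was fitted as a block in an alternative. The adipose values given are from the fit without this block. With the block no call in adipose tissue changed. In lung these values were -0.01, -0.01 and 0.03. The fits were tested on simulated data.

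Probes were named through RefSeq accessions of the gene table of GRCr8. No sample column was left unused. The members and gene lists were chosen with earlier results of these data known. All members are named. List genes are named when they pass the test in HDM rats, and otherwise from among the 4 per list with the largest change in lung. Emp2, Pdpn and Epcam were named after their values were seen. Alternatives were the methods' t-test, other normalizations, a filter on dim probes, array weights, a joint fit with the rat as a random block, blocks, other thresholds, other probes and each rat left out. The number of arrays limits the precision. Plots were made in Python 3.11.15 with matplotlib 3.10.9.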

Additional observations from a re-analysis of the deposited data

Results flagged for a closer look

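The adipose signal of Scgb1a1 in HDM rat 2 stood at -0.65 on the log2 scale, far above the other 4 HDM rats (-5.14 to -4.27). The gap to the nearest of them was 0.81 of the whole range of the group. The same array had 1711 outlier spots. In all, 18 groups of 5 HDM rats were examined in this way and 1 stood out, and chance alone marks about 1 in 20 groups.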

How the results depend on the processing

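Under each of the alternatives that were run, the number of called genes stayed at 0 of 9 in lung, 0 of 9 in adipose tissue and 0 of 9 for the difference between the changes, and at 9 of 9 for lung against adipose tissue in control rats, also (0, 0, 0 and 9) with each rat left out. For 6 of the 9 genes (Sftpa1, Sftpb, Sftpd, Napsa, Lamp3 and Scgb1a1) the lung value stayed below 0 throughout, for Sftpd between -0.41 and -0.25 and for Sftpb between -0.24 and -0.13. Values that were not called turned sign, and the cause was not tested. In lung these were Slc34a2 with median scaling (-0.020), and Scgb3a2 with quantile normalization (0.015), a 75th percentile over bright probes, those well above background (0.036), and the slide row as a block (0.083). With the replicate block, which pairs HDM and control rats of the same number, Sftpc was at 0.0055, Slc34a2 at -0.11, Scgb3a2 at 0.045 and Clca1 at -0.20 (from 0.56), and Napsa in adipose tissue at -0.062. It called no probe in lung, so Lgi3 (-0.77, adjusted p = 0.310) and the 5 neutrophil markers lost their calls, and it changed no other call reported. With each rat left out, Slc34a2 lay between -0.063 and 0.12, Scgb3a2 between -0.089 and 0.054, Scgb3a1 between -0.030 and 0.80, Clca1 between -0.052 and 1.27 and adipose Napsa between -0.17 and 0.34. In adipose tissue, Sftpc and Sftpd turned with quantile normalization (0.10 and 0.039) and with the normexp correction (0.042 and 0.0093). Napsa turned with the percentile of bright probes (-0.097), scaling to Gapdh and Hprt1 (-0.016), quantile normalization (-0.013), the slide row as a block (-0.15) and without control rat 1 and HDM rat 1 (-0.032). With the slide row as a block, adipose Scgb1a1 was at -0.36 (from 0.95) and, in lung, Fasn at 0.14 (from -0.60), Klf5 at 0.094 (from -0.33) and Cyp2a3 at 1.44 (from -0.61). Lgi3 kept its direction in all alternatives but also lost its call with the percentile of bright probes (-0.68, adjusted p = 0.0581), with the joint fit (adjusted p = 0.939) and without both rat 1 animals (-0.72, adjusted p = 0.243), the last added after the data had been seen. In the joint fit Csf3r lost its call (adjusted p = 0.335), and with the slide row as a block S100a8 (adjusted p = 0.0539) and Csf3r (adjusted p = 0.0543). Over all probes the lung count was 390, and 25 with the slide row as a block, 166 with the joint fit and 0 with the replicate block. It was 686 without dim probes, 705 with array weights and 233 with the percentile of bright probes. With 1 rat left out it lay between 100 (without control rat 2) and 333 (without HDM rat 3), with 125 and 175 without control rats 1 and 3, 163, 161 and 210 without HDM rats 1, 2 and 5, and 41 without both rat 1 animals. In adipose tissue it was 0, and 338 with array weights, 106 with the joint fit, 7 with quantile normalization, 5 without dim probes and 3 with median scaling. Most adipose signals of these genes lay near background, which limits precision there.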
